A study of Rattus norvegicus with 12 samples.

Results

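The 6 actin genes of the rat were described across 12 RNA-seq libraries of cultured neonatal rat ventricular myocytes (NRVMs). They were taken by symbol from the deposited tables, which list 18469 genes, and all 6 were present: Acta1 (skeletal muscle alpha-actin), Actc1 (cardiac alpha-actin), Acta2 (smooth muscle alpha-actin), Actg2 (enteric smooth muscle gamma-actin), Actb (cytoplasmic beta-actin) and Actg1 (cytoplasmic gamma-actin). The cells came from Sprague-Dawley rats and fall into 4 groups of 3 biological replicates. The siNeg group received a negative control siRNA and no agonist, and the siNeg.PE group received the same siRNA and then phenylephrine (PE), an alpha-1 adrenergic agonist that makes cultured cardiomyocytes enlarge. The siSlc25a26 and siSlc25a26.PE groups differ from these by the siRNA, which was directed at Slc25a26, the mitochondrial carrier of the methyl donor S-adenosylmethionine. By the labels, PE was added 12 h after transfection and kept for 36 h. All cells therefore share transfection with an siRNA, and the groups without PE are labelled untreated. The methods of the study separate the myocytes of newborn hearts from fibroblasts on a density gradient, a step that leaves some other cells in such cultures.

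Actin monomers assemble into the thin filaments on which myosin pulls in the sarcomere, and into the filaments of the cell cortex and of stress fibres in every cell. Striated muscle builds its thin filaments from the cardiac and skeletal alpha-actins, whose proteins are almost identical, smooth muscle and activated fibroblasts carry Acta2, and Actb and Actg1 are made in nearly all cells. The fetal and newborn ventricle expresses Acta1 beside Actc1, and a renewed rise of Acta1 is a classical marker of hypertrophic growth. Muscle actin genes are textbook targets of serum response factor (SRF), which binds the CArG box, and of its MRTF and myocardin cofactors, and TEA domain factors bind the M-CAT element, CATTCC.

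Total estimated counts were 24770972 to 28709049 per library, and no member fell under 604 counts in any library. Slc25a26 stood at 31.4 ± 2.0 CPM (counts scaled to the library size, SD, n = 3) in siNeg and 15.1 ± 0.612 in siSlc25a26 (log2 fold change -1.08, edgeR adjusted p = 1.08e-05). It stood at 102 ± 14.1 CPM in siNeg.PE and at 102 ± 3.69 CPM in the libraries labelled siSlc25a26.PE (log2 fold change -0.01, edgeR adjusted p = 0.969). A lower level of the targeted mRNA was thus measured without PE and was not detected under PE, and every direction drawn from the libraries labelled siSlc25a26.PE rests on their label. Cardiomyocyte identity was clear in all 12 libraries: Tnnt2, the cardiac troponin T gene, averaged 4293 to 5535 FPKM per group (fragments scaled to gene length and library total) and Nkx2-5, a cardiac transcription factor, 192 to 222 FPKM. Fibroblast genes were present as well, with Col1a1 (collagen I) at 915 to 2378 FPKM per group, while the 8 endothelial markers summed to 4.91 to 6.29 FPKM per library.

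Promoter windows of 5 of the 6 genes were found in a RefSeq table of the rat assembly GRCr8, and 4 are shown because they hold the elements named above; position -1 is the base before the transcription start. Capitals mark a CArG box, a CArG box with 1 C or G in its core, or CATTCC on either strand.
Acta1, chr19:68784195-68784444, minus strand: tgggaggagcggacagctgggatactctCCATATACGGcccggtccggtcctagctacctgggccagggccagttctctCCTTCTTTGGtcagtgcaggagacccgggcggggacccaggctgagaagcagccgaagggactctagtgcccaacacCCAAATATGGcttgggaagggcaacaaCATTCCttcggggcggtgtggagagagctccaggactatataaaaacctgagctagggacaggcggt
Actc1, chr3:121271816-121271967, minus strand: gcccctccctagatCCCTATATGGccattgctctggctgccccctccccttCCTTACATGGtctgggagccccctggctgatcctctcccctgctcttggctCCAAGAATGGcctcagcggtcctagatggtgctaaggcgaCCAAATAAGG
Acta2, chr1:241172504-241172713, minus strand: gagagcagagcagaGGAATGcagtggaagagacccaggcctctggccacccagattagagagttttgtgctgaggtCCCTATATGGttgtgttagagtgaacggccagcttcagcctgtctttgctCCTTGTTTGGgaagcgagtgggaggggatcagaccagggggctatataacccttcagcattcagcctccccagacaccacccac
Actg1, chr10:106120952-106121061, minus strand: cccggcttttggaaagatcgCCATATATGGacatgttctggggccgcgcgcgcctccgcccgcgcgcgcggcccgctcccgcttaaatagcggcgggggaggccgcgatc
The Acta1 window runs from -250 to -1 and holds a CArG box at -94 to -85, CArG boxes with 1 C or G in the core at -222 and -171, and CATTCC at -67 to -62. The Actc1 window runs from -140 to 12 and holds a CArG box at 3 to 12, just past the start, and 3 boxes with 1 C or G in the core at -126, -89 and -38. The Acta2 window runs from -210 to -1 and holds 2 boxes with 1 C or G in the core, at -134 and -84, and the reverse complement of CATTCC at -196. Actg1 has a CArG box at -90 to -81. None of these letters were found in the Actg2 window of 300 bases, which is not shown. Of all 33469 promoter windows of that length in the table, 1.637% hold a CArG box, 9.424% hold a CArG box with or without the 1 change, and 14.189% hold CATTCC, searched on both strands. The matches are descriptions of the letters, and binding was not measured.

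On the FPKM scale, which corrects for gene length, Actc1 was the highest actin in every group. Without PE the order was Actc1, Actb, Acta2, Actg1, Acta1 and Actg2, in siNeg and in siSlc25a26 alike. With PE, Acta1 moved from the fifth place to the second, behind Actc1 and ahead of Actb, Acta2, Actg1 and Actg2. No pair of neighbours in these orders overlapped within a group, and the narrowest step was Actb over Acta2 in siNeg, 1.27-fold.

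**Figure D1:**
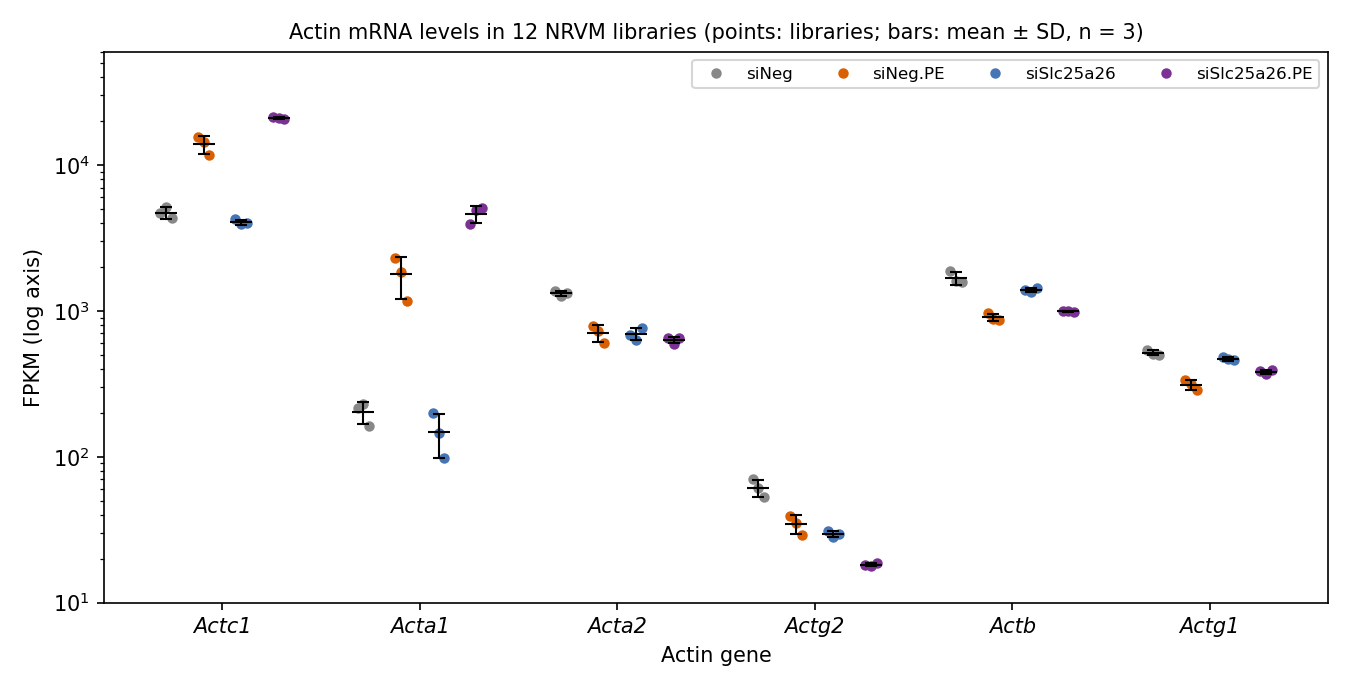
Level of each actin gene in FPKM on a log axis, with 1 point per library and bars for the mean ± SD (n = 3) of the 4 groups. Acta1 spans from 98.7 FPKM in a siSlc25a26 library to 5098 FPKM in a library labelled siSlc25a26.PE, while Actg2 stays below all other actins.

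Acta1 showed the widest range. Its level was 217, 229 and 163 FPKM in the 3 siNeg libraries and 2295, 1861 and 1176 FPKM in the 3 siNeg.PE libraries. The lowest siNeg.PE library was thus far above the highest siNeg library, and the spread within siNeg.PE was wide (1777 ± 564 FPKM, SD, n = 3). Acta1 rose with PE in siNeg 9.04-fold (log2 fold change 3.18, SE 0.25, edgeR adjusted p = 5.13e-05), rank 40 of 13719 genes tested by the size of the log2 fold change. In siSlc25a26 without PE it was 198, 146 and 98.7 FPKM, a range that overlaps siNeg, and the log2 fold change of -0.52 (SE 0.22) did not pass the test (edgeR adjusted p = 0.0802). That value depended on single libraries: it passed without siNeg replicate 3 (-0.68) and without siSlc25a26 replicate 1 (-0.79). The libraries labelled siSlc25a26.PE held 3938, 4879 and 5098 FPKM, all above the highest siNeg.PE library. Against siSlc25a26 this was a rise of 35.5-fold (log2 fold change 5.15, SE 0.24, edgeR adjusted p = 5.41e-07), rank 9 of 13776 genes, and against siNeg.PE a rise of 2.71-fold (log2 fold change 1.44, SE 0.23, edgeR adjusted p = 0.0012).

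Actc1, the main sarcomeric actin of the heart, moved in the same directions over a narrower range. It was 4653, 5144 and 4301 FPKM in siNeg and 15476, 14321 and 11776 FPKM in siNeg.PE, without overlap. PE raised it 3.04-fold in siNeg (log2 fold change 1.60, SE 0.12, edgeR adjusted p = 3.61e-05). In siSlc25a26 it was 4245, 3935 and 4014 FPKM, below each siNeg library, with a log2 fold change of -0.27 (SE 0.07, edgeR adjusted p = 0.0174) that is smaller than the 1.5-fold required for a call. The libraries labelled siSlc25a26.PE agreed closely with each other, at 21336, 20878 and 20735 FPKM, and lay above all siNeg.PE libraries. Actc1 rose 5.83-fold against siSlc25a26 (log2 fold change 2.54, SE 0.05, edgeR adjusted p = 1.22e-08) and 1.58-fold against siNeg.PE (log2 fold change 0.66, SE 0.12, edgeR adjusted p = 0.00235). The last call is close to the fold threshold, and without siNeg.PE replicate 3, the lowest of its group, the log2 fold change was 0.52 and Actc1 was not called. The estimated counts of Acta1 and Actc1 were whole numbers in all untreated libraries and not whole in 5 of the 6 libraries with PE, as happens in estimated counts when reads are divided between genes.

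The 6 actins together took 1.26% ± 0.0697 of all counts in siNeg and 2.52% ± 0.373 in siNeg.PE. They took 1.01% ± 0.0358 in siSlc25a26 and 3.92% ± 0.0390 in the libraries labelled siSlc25a26.PE (SD, n = 3 each). The 4 groups did not overlap in this share. The sum of the striated pair, Actc1 and Acta1, was 4903 FPKM in siNeg, 15635 in siNeg.PE, 4212 in siSlc25a26 and 25621 in the libraries labelled siSlc25a26.PE. The cytoplasmic pair, Actb and Actg1, summed to 2198, 1215, 1858 and 1374 FPKM in the same order, so that its sums with PE were lower than those without. The smooth muscle pair, Acta2 and Actg2, summed to 1385 FPKM in siNeg and to 741, 723 and 650 FPKM in the other groups.

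**Figure D2:**
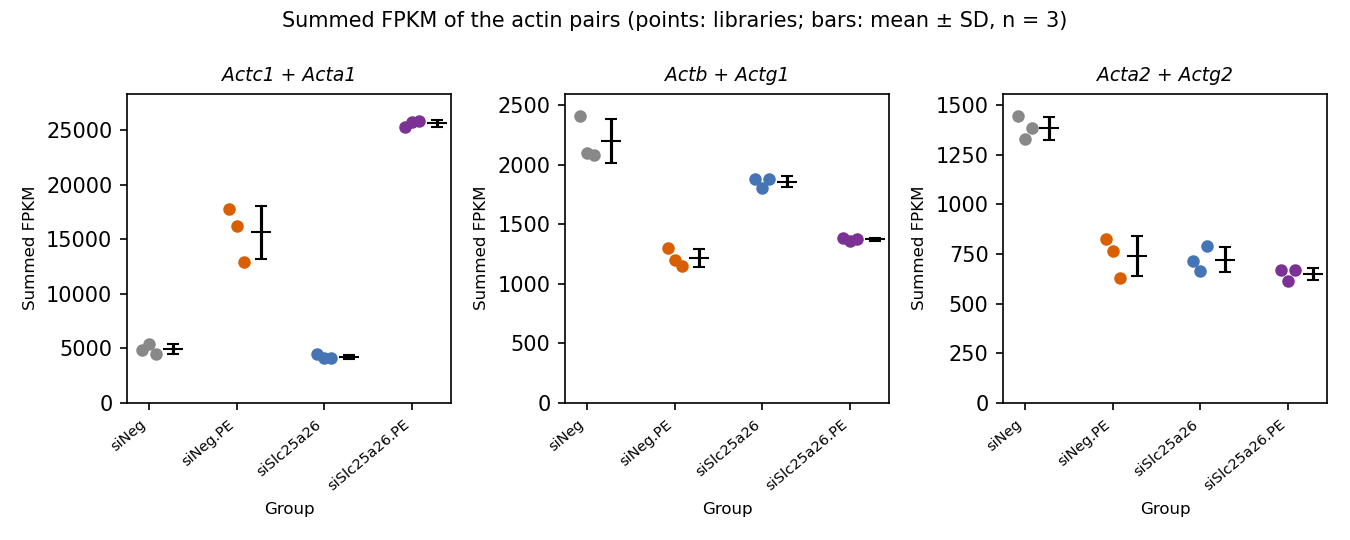
Summed FPKM of the striated, cytoplasmic and smooth muscle actin pairs in each library (points), with the mean ± SD per group (bars, n = 3) and axes that start at 0. The striated pair was higher in all PE libraries than in all untreated ones, the cytoplasmic pair was lower in them, and the smooth muscle pair was highest in siNeg.

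As a share of the summed actin FPKM, the striated pair made up 57.7% ± 2.88 in siNeg, 88.8% ± 0.773 in siNeg.PE, 62.0% ± 1.28 in siSlc25a26 and 92.7% ± 0.195 in the libraries labelled siSlc25a26.PE. The shares add up to 100% by construction, so a larger share of 1 gene lowers the shares of the rest. Acta1 accounted for 2.38% ± 0.286 in siNeg and 9.93% ± 1.80 in siNeg.PE. It accounted for 2.17% ± 0.681 in siSlc25a26 and 16.8% ± 2.07 in the libraries labelled siSlc25a26.PE. Without PE the difference of -0.215 percentage points between the siRNAs lay within the spread of the libraries (two-sided exact permutation p = 0.7), whereas under PE the difference was 6.84 points without overlap. Actc1 went from 55.3% ± 2.72 to 78.9% ± 1.07 with PE in siNeg, and from 59.8% ± 0.607 to 75.9% ± 1.93 in the siSlc25a26 pair of groups. Under PE its share overlapped between the siRNAs, -2.97 points (exact p = 0.2), while its level did not. The exact permutation test over 3 against 3 libraries has 20 splits and cannot give less than p = 0.1, the value of every share difference without overlap, which became 0.117 after Benjamini-Hochberg adjustment over the 68 quantities tested.

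**Figure D3:**
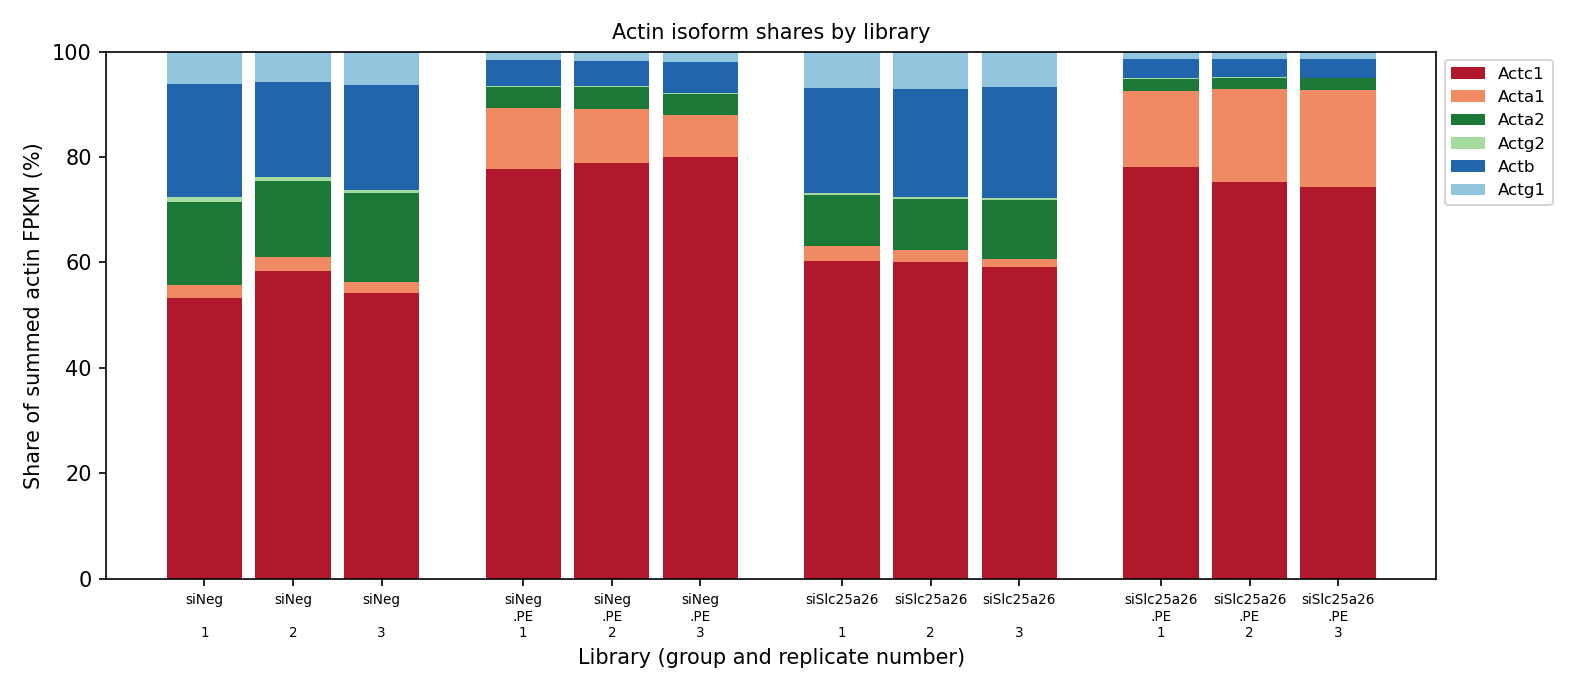
Share of each gene in the summed actin FPKM of each library, in percent, stacked to 100% with 3 libraries per group. Actc1 fills 53.3% to 60.3% of the bars without PE and 74.4% to 79.9% with PE, and the Acta1 segment is widest in the libraries labelled siSlc25a26.PE.

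Within the striated pair, Acta1 made up 4.12% ± 0.415 of the FPKM in siNeg and 11.2% ± 1.94 in siNeg.PE. It made up 3.48% ± 1.03 in siSlc25a26 and 18.1% ± 2.21 in the libraries labelled siSlc25a26.PE. Put as a ratio, there were 23.4 Actc1 per Acta1 in siNeg, 8.15 in siNeg.PE, 29.7 in siSlc25a26 and 4.59 in the libraries labelled siSlc25a26.PE. The siSlc25a26 ratio was the least even, with 21.4, 26.9 and 40.7 in its 3 libraries. The ranges of siNeg and siSlc25a26 overlapped, and both PE groups lay below them and apart from each other.

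Acta2, which smooth muscle cells, pericytes and activated fibroblasts express strongly, was 1374, 1267 and 1330 FPKM in siNeg and 784, 732 and 602 FPKM in siNeg.PE. It fell with PE in siNeg 1.82-fold (log2 fold change -0.86, SE 0.10, edgeR adjusted p = 0.00032). In siSlc25a26 without PE it was 682, 634 and 763 FPKM, all below siNeg, and it fell 1.99-fold (log2 fold change -0.99, SE 0.08, edgeR adjusted p = 1.43e-05). The libraries labelled siSlc25a26.PE held 650, 595 and 649 FPKM and overlapped with siSlc25a26 and with siNeg.PE. Neither comparison passed the test: the log2 fold change was 0.04 (SE 0.08, edgeR adjusted p = 0.675) for PE in siSlc25a26 and -0.10 (SE 0.11, edgeR adjusted p = 0.518) for siSlc25a26 under PE. Acta2 thus had a single high group, siNeg, with its share of the actin FPKM at 15.6% ± 1.20 there.

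Actg2 was the rarest actin, at 69.8, 60.6 and 53.3 FPKM in siNeg and 39.4, 34.9 and 29.2 FPKM in siNeg.PE. It fell with PE in siNeg 1.72-fold (log2 fold change -0.78, SE 0.13, edgeR adjusted p = 0.00193). In siSlc25a26 it was 31.0, 28.2 and 29.4 FPKM, a fall of 2.16-fold (log2 fold change -1.11, SE 0.10, edgeR adjusted p = 3.08e-05). The libraries labelled siSlc25a26.PE were the lowest, at 18.2, 17.8 and 18.6 FPKM. Actg2 fell 1.82-fold there against siNeg.PE (log2 fold change -0.86, SE 0.12, edgeR adjusted p = 0.000624). Against siSlc25a26 the log2 fold change was -0.52 (SE 0.06, edgeR adjusted p = 0.000179), below the fold threshold. The ratio of Acta2 to Actg2 was 21.8 ± 2.76 in siNeg, 20.5 ± 0.557 in siNeg.PE and 23.5 ± 2.14 in siSlc25a26. The siNeg range overlapped with both others, which did not overlap with each other. The ratio was 34.7 ± 1.18 in the libraries labelled siSlc25a26.PE, above all other libraries.

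Markers of other cells also differed between the groups. The 12 fibroblast markers summed to 4961 to 5403 FPKM in the siNeg libraries, 2711 to 2749 in siNeg.PE, 2949 to 3317 in siSlc25a26 and 1828 to 2092 in the libraries labelled siSlc25a26.PE. Col1a1, Col3a1, Fn1 and Col1a2 made up most of the siNeg sum, at 2378, 1278, 504 and 417 FPKM, and each averaged less in siNeg.PE. Pdgfra, Dcn and Postn averaged 10.8, 67.5 and 315 FPKM in siNeg and 13.5, 78.9 and 339 in siNeg.PE. Lum was nearly level (36.5 and 36.3), and Tcf21, Ddr2, Thy1 and Fbln1 averaged less in siNeg.PE. Of the 12 markers, 6 fell with PE in siNeg, against 8.24% of all genes, and 8 fell in siSlc25a26 without PE, against 7.2%, with none higher. With siSlc25a26 under PE 5 fell, against 8.1%, and 1 rose, Tcf21 (log2 fold change 0.61), against 7.71%. With PE in siSlc25a26 1 fell, against 10.4%. The fibroblast sum was thus lower in the libraries labelled siSlc25a26.PE than in siSlc25a26, and Acta2 averaged 631.5 FPKM in the former and 693 in the latter. On the edgeR scale of that comparison, the median log2 fold change of the fibroblast list was -0.22 and Acta2 was at 0.04. The 12 smooth muscle and mural markers summed to 2308 to 2465 FPKM in siNeg, 1910 to 2134 in siNeg.PE, 1731 to 1773 in siSlc25a26 and 2227 to 2357 in the libraries labelled siSlc25a26.PE. Des, the desmin gene, which cardiomyocytes express as well, made up much of this sum. Without Des, left out after its values were seen, the other 11 summed to 1358 to 1512 FPKM in siNeg, 655 to 756 in siNeg.PE, 735 to 819 in siSlc25a26 and 578 to 587 in the libraries labelled siSlc25a26.PE, which were then the lowest. In the list of 12, with Des, 6 fell and 2 rose with PE in siNeg, against 8.24% and 12.4% of all genes. With siSlc25a26 4 fell and 0 rose without PE, against 7.2% and 8.92%, and 3 fell and 1 rose under PE, against 8.1% and 7.71%. With PE in siSlc25a26 3 fell and 4 rose, against 10.4% and 10.1%. Tagln, the actin-binding transgelin of smooth muscle, fell with PE in siNeg (log2 fold change -1.29) and in siSlc25a26 (-0.77), and in siSlc25a26 without PE (-1.12) and under PE (-0.61). Notch3, a receptor of mural cells, fell with PE in siNeg (-0.99) and in siSlc25a26 without PE (-1.06). Myh11, the smooth muscle myosin heavy chain, fell with PE in siNeg (-0.79) and with siSlc25a26 without PE (-1.42) and under PE (-0.92). Cnn1, a calponin that binds actin, fell in siSlc25a26 without PE (-1.18) and rose with PE in siNeg (1.58) and in siSlc25a26 (3.35). Cspg4, the 1 marker of this list that rose with siSlc25a26 under PE (1.08), also rose with PE in siSlc25a26 (1.12). Rgs5 rose with PE in siNeg (0.74) and fell with siSlc25a26 under PE (-0.66), at low group means of 0.723 to 1.42 FPKM. The 8 macrophage markers summed to 89.1 to 108 FPKM in siNeg and to 29.0 to 56.8 FPKM in the other groups. Lyz2 made up most of this sum, averaging 82.1 FPKM in siNeg and 22.6 to 41.6 in the other groups. Cd163 was at 0 in 11 of 12 libraries, while the endothelial markers Emcn and Cldn5 were at 0 in 5 and 4 libraries. The 12 cardiomyocyte markers summed to 15665 to 17602 FPKM without PE and 20313 to 22607 FPKM with PE. With PE 4 rose in siNeg and 5 in siSlc25a26, against 12.4% and 10.1% of all genes, and 0 were called lower in these 2 comparisons. With siSlc25a26 without PE 1 was called lower, Myh6 (-0.66), against 7.2% of all genes, and 0 were called higher. Under PE 0 were called with siSlc25a26, against 15.8%. Myh6 averaged 1189 FPKM in siNeg, 829 in siNeg.PE, 780 in siSlc25a26 and 636 in the libraries labelled siSlc25a26.PE. Pln averaged 1514, 1395, 1619 and 1000 FPKM in the same order. In bulk RNA, fewer cells of a type and less RNA per cell cannot be told apart, and the part of these markers in the actin results was not tested.

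Actb and Actg1, the cytoplasmic actins often used as reference genes, were also lower with PE than without it in each siRNA background, with calls in siNeg and none in siSlc25a26. Actb was 1874, 1593 and 1579 FPKM in siNeg and 964, 885 and 861 FPKM in siNeg.PE. It fell with PE in siNeg 1.79-fold (log2 fold change -0.84, SE 0.08, edgeR adjusted p = 0.000146). In siSlc25a26 it was 1401, 1343 and 1425 FPKM, below each siNeg library, with a log2 fold change of -0.32 (SE 0.07, edgeR adjusted p = 0.00502) under the fold threshold. The libraries labelled siSlc25a26.PE lay within a narrow band of 999, 992 and 988 FPKM. Their log2 fold change was -0.30 (SE 0.04, edgeR adjusted p = 0.00054) against siSlc25a26, which again missed the fold threshold, and 0.21 (SE 0.08, edgeR adjusted p = 0.0547) against siNeg.PE.

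Actg1 was 538, 510 and 500 FPKM in siNeg and 335, 313 and 286 FPKM in siNeg.PE. It fell with PE in siNeg 1.60-fold (log2 fold change -0.68, SE 0.07, edgeR adjusted p = 0.000217). The siSlc25a26 libraries, at 484, 465 and 458 FPKM, were below siNeg by less than the threshold (log2 fold change -0.19, SE 0.05, edgeR adjusted p = 0.0148). The libraries labelled siSlc25a26.PE held 384, 370 and 390 FPKM, above siNeg.PE and below siSlc25a26. The log2 fold changes were 0.36 (SE 0.08, edgeR adjusted p = 0.0075) under PE and -0.12 (SE 0.05, edgeR adjusted p = 0.061) for PE in siSlc25a26, and neither was called. The ratio of Actb to Actg1 went from 3.26 ± 0.196 in siNeg to 2.91 ± 0.0915 in siNeg.PE. It was 2.96 ± 0.128 in siSlc25a26 and 2.60 ± 0.0743 in the libraries labelled siSlc25a26.PE.

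The Actg1 values carry an added uncertainty. A near-identical gene, LOC100361457 (Actg1l1 in RefSeq), took 27.3% to 33.6% of the counts of the pair in each library, and the counts of Actg1, of this gene and of Acta2 were not whole in any library. Those of Actb were not whole in 8 of 12 libraries. The log2 fold changes of LOC100361457 were -0.82 for PE in siNeg, which was called, -0.39 for siSlc25a26 without PE, 0.34 for siSlc25a26 under PE and -0.08 for PE in siSlc25a26. These lay on the same sides of 0 as those of Actg1. Of 25 actin pseudogenes in the RefSeq table none is listed in the deposited tables, so reads from such copies cannot be set apart here. Actg2 was the only member with whole counts in all 12 libraries.

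Side by side, PE in siNeg moved all 6 actins past the thresholds, with 2 higher and 4 lower, where 20.7% of all genes tested were called (12.4% higher and 8.24% lower). All 6 also had no overlap between the groups, as did 58.6% of all genes. PE in siSlc25a26, read from the libraries labelled siSlc25a26.PE, moved the 2 striated actins, both higher, against 20.5% of all genes (10.1% higher and 10.4% lower), and 5 of the 6 actins did not overlap, against 61% of all genes. siSlc25a26 without PE moved the 2 smooth muscle actins, both lower, against 16.1% of all genes (8.92% higher and 7.2% lower), and 5 actins did not overlap, against 56.9%. siSlc25a26 under PE moved 3 actins, Acta1 and Actc1 higher and Actg2 lower, against 15.8% of all genes (7.71% higher and 8.1% lower), and 5 actins did not overlap, against 52%. By the adjusted p alone, with no fold threshold, 6 actins passed for PE in siNeg, 4 for PE in siSlc25a26, 5 for siSlc25a26 without PE and 4 for siSlc25a26 under PE, against 49.5%, 52.4%, 45% and 40.1% of all genes. Each group enters 2 of these 4 comparisons, so they are not independent of each other.

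**Figure D4:**
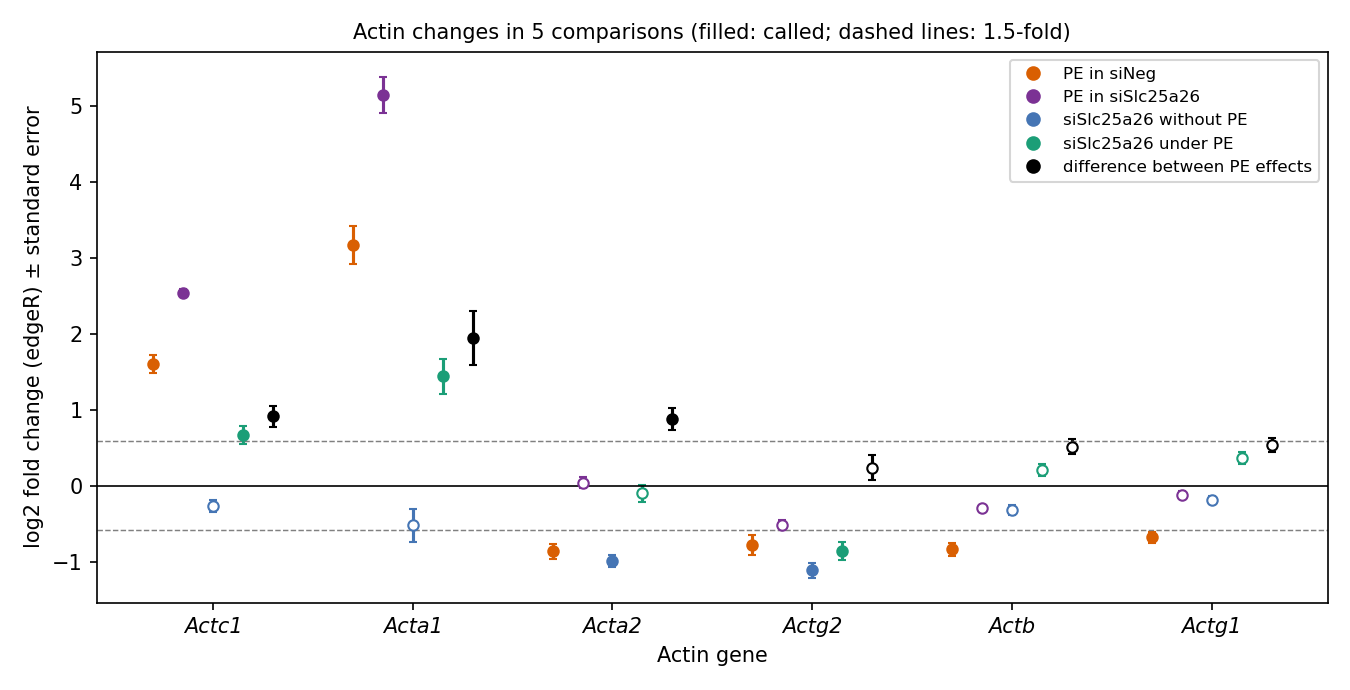
Log2 fold change of each actin gene in the 4 comparisons and in the difference between the PE effects, with bars for the standard error (edgeR, n = 3 libraries per group). Filled points were called (above 1.5-fold with an adjusted p below 0.05) and the dashed lines mark 1.5-fold; Acta1 and Actc1 lie highest with PE, and the 4 other actins lie below 0 with PE in siNeg.

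Whether the PE effect itself differed between the siRNAs was tested as an interaction over all 12 libraries, in which 5.5% of all genes were called (2.16% higher and 3.34% lower in siSlc25a26). Of the actins 3 were called, each with a higher PE effect in the siSlc25a26 background, and this again rests on the label of the siSlc25a26.PE libraries. The difference on the log2 scale was 1.95 (SE 0.36, edgeR adjusted p = 0.00488) for Acta1, 0.92 (SE 0.14, edgeR adjusted p = 0.00174) for Actc1 and 0.88 (SE 0.14, edgeR adjusted p = 0.00233) for Acta2. For the striated actins PE raised the level in both backgrounds, by more in siSlc25a26, whereas for Acta2 PE lowered the level in siNeg and left a log2 fold change of 0.04 in siSlc25a26. Actb and Actg1 had differences of 0.52 (SE 0.10, edgeR adjusted p = 0.00556) and 0.54 (SE 0.09, edgeR adjusted p = 0.00293), below the fold threshold. By the adjusted p alone 5 actins passed, against 11.2% of all genes. Actg1 was called without siNeg.PE replicate 1 (0.60) and with the counts of LOC100361457 added (0.59). Actg2 differed by 0.24 (SE 0.16, edgeR adjusted p = 0.379).

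Across the 12 libraries, whose spread is mostly the spread between the 4 groups, the log2 CPM of Acta1 and Actc1 correlated at r = 0.995, of Actb and Actg1 at 0.942 and of Acta2 and Actg2 at 0.871 (Pearson, as descriptions). Among 11757 genes compared, the profile of Acta1 was most like those of Fhl1, a LIM domain protein of muscle (0.996), Phf24 (0.994) and Ptk2b, the kinase Pyk2 (0.991). Actc1 was closest to Fhl1 (0.997), Phf24 (0.995) and Ehd4, an endocytic ATPase (0.995). Acta2 was closest to Erf, an ETS repressor (0.962), and to the matrix genes Loxl1 (0.957) and Ltbp2 (0.956), and Actg2 to Pcolce, an enhancer of procollagen processing (0.990), Lztr1 (0.987) and Igfbp6 (0.984). Actb was closest to Lasp1, an actin-binding adaptor (0.989), Txndc5 (0.985) and Pgf (0.982), and Actg1 to Ada, adenosine deaminase (0.971), Ptbp1, a splicing factor (0.967), and Prrc1 (0.959).

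The regulators of actin transcription were counted next. Of 12 SRF and MRTF regulators, 2 rose and none fell with PE in siNeg, near the 20.7% of all genes called there, and the median log2 fold change of the list was -0.13. The median of all genes tested was between -0.00357 and 0.0145 in the 4 comparisons. Myocd, the cardiac and smooth muscle SRF cofactor myocardin, rose with PE in siNeg (log2 fold change 0.86), with PE in siSlc25a26 (1.19) and with siSlc25a26 under PE (0.66). Abra, a muscle activator of MRTF signalling, rose with PE in siNeg (0.92) and in siSlc25a26 (0.95). With PE in siSlc25a26, where 20.5% of all genes were called, 3 of the list rose, including Srf itself (0.66), and 2 fell, Phactr1 (-1.16), which binds actin monomers, and Hopx (-0.71), a homeodomain protein that restrains SRF. Hopx also fell with siSlc25a26 under PE (-0.63), and none of the 12 was called for siSlc25a26 without PE, against 16.1% of all genes. Under PE 1 rose and 1 fell with siSlc25a26, against 15.8%.

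Of 21 genes of monomer binding and filament turnover, 2 rose and 3 fell with PE in siNeg, and 4 rose and 1 fell with PE in siSlc25a26 (list medians -0.10 and 0.25), against 20.7% and 20.5% of all genes called. Cfl2, the muscle cofilin that severs filaments, rose in both (log2 fold changes 1.06 and 1.72), and Ssh3, a cofilin phosphatase, fell in both (-1.68 and -1.19). Ssh3 was low, with group means from 1.03 FPKM in siNeg.PE to 4.80 FPKM in siSlc25a26. Tmsb4x, thymosin beta 4, which holds monomers, fell with PE in siNeg (-0.62), and Dstn, destrin, rose with PE in siSlc25a26 (0.70). Cap2, a monomer-recycling protein of muscle, rose with PE in siNeg (0.73) and with siSlc25a26 without PE (0.84). In that last comparison 2 genes rose, the other being the cofilin phosphatase Ssh1 (0.59), and under PE 1 rose, Ssh3 (0.92), against 16.1% and 15.8% of all genes.

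Of 14 genes that cap or extend filament ends, 4 rose and 1 fell with PE in siNeg, and 3 rose and 1 fell with PE in siSlc25a26 (list medians 0.14 and 0.37), against 20.7% and 20.5% of all genes. Lmod3, a leiomodin that nucleates thin filaments at pointed ends, rose by log2 fold changes of 1.61 and 2.19, and Vil1, villin, by 2.99 and 3.62. Both were low, with group means of 0.657 to 2.63 FPKM for Lmod3 and 0.113 to 1.65 FPKM for Vil1. Lmod1, the smooth muscle leiomodin, fell with PE in siNeg (-1.43), with PE in siSlc25a26 (-0.97) and with siSlc25a26 without PE (-0.81), where Tmod2, a tropomodulin, fell too (-1.04). Tmod2 was low as well, with group means of 0.6 to 1.04 FPKM. Lmod2, the cardiac leiomodin, rose with PE in siNeg (0.76) and in siSlc25a26 (1.21) and with siSlc25a26 under PE (0.61), the only call of the list there. The 2 calls without PE and 1 call under PE with siSlc25a26 stand against 16.1% and 15.8% of all genes.

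Of 25 genes of nucleation and elongation, 24 were tested. With PE in siNeg 3 rose and 1 fell, and with PE in siSlc25a26 3 rose (list medians 0.04 and 0.22), against 20.7% and 20.5% of all genes. Enah, which lengthens filaments at barbed ends, rose in siNeg (1.65), in siSlc25a26 (2.74) and with siSlc25a26 under PE (1.31). Actr2, a subunit of the Arp2/3 complex, rose with siSlc25a26 without PE (0.87), the only call of the list there, and under PE (0.78), and its partner Actr3 rose with PE in siNeg (0.60) and in siSlc25a26 (0.84). The formins moved unevenly: Diaph3 rose (0.79) and Fhod1 fell (-0.78) with PE in siNeg, and Diaph3 fell with siSlc25a26 under PE (-0.69), where 3 genes of the list rose and 1 fell, against 15.8% of all genes.

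Crosslinking and bundling genes gave the highest counts of these lists: of 17 tested among 19, 5 rose and 4 fell with PE in siNeg, and 9 rose and none fell with PE in siSlc25a26 (list medians 0.40 and 0.70), where 20.7% and 20.5% of all genes were called. Xirp2, a Xin repeat protein of the intercalated disc, rose in all 4 comparisons (log2 fold changes 2.69, 3.51, 0.65 and 1.47, for PE in siNeg, PE in siSlc25a26, siSlc25a26 without PE and siSlc25a26 under PE). Nebl, nebulette, rose with PE in siNeg (1.43) and in siSlc25a26 (0.70), as did Dmd, dystrophin (1.27 and 1.29). Flna, a filamin, fell with PE in siNeg (-1.10). Without PE, 2 genes rose with siSlc25a26, Xirp2 and Xirp1 (0.60), and 4 fell, against 16.1% of all genes, among them Flna (-1.02) and Lcp1, plastin 2 of leukocytes (-1.07). Lcp1 was low, with group means of 0.673 to 1.68 FPKM. Under PE 5 rose with siSlc25a26 and none fell, against 15.8% of all genes. Actn1, a non-muscle alpha-actinin, was among them (1.04), and it rose with PE in siSlc25a26 (1.15) but was not called with PE in siNeg (-0.28). Xirp1 was called higher in the other 3 comparisons as well (0.76 for PE in siNeg, 1.16 for PE in siSlc25a26 and 0.99 for siSlc25a26 under PE).

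Of 23 genes that fold actin or modify it chemically, 1 fell with PE in siNeg, Mical1 (-0.85), a monooxygenase that oxidizes filaments, and none was called for siSlc25a26 without PE, against 20.7% and 16.1% of all genes. Mical2 rose with siSlc25a26 under PE (0.69) and with PE in siSlc25a26 (0.89), where Pfdn1, a prefoldin subunit, rose as well (0.72) and 3 genes rose in all, against 20.5% of all genes. The list medians were 0.16 for PE in siNeg and 0.25 for PE in siSlc25a26. No subunit of the chaperonin that folds actin was called in the 4 comparisons. Setd3, which methylates an actin histidine with S-adenosylmethionine as donor, was not called: its log2 fold changes were 0.16 for PE in siNeg, 0.26 for siSlc25a26 without PE, 0.21 for siSlc25a26 under PE and 0.12 for PE in siSlc25a26. Naa80, the acetylase of the actin N terminus, had -0.27, 0.43, 0.32 and -0.38 in the same order and was not called either.

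**Figure D5:**
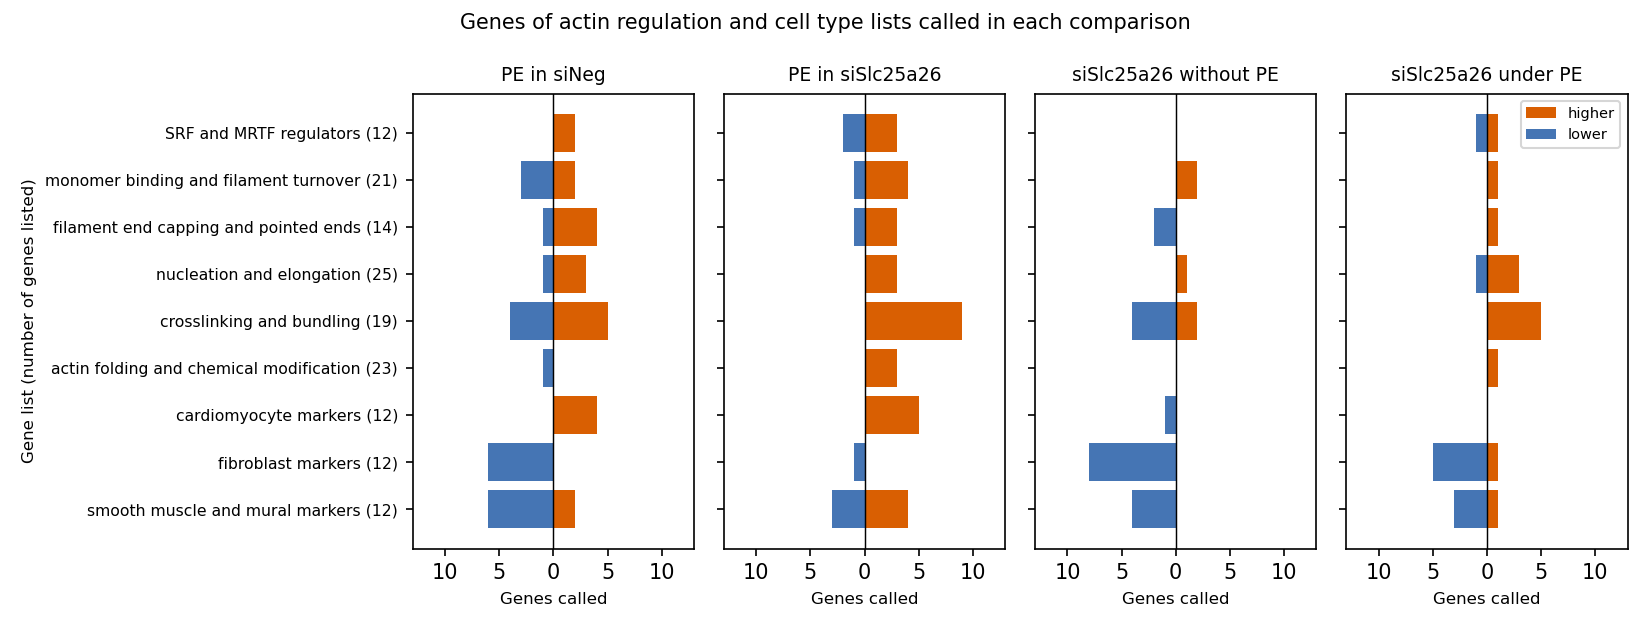
Number of genes called higher (to the right) and lower (to the left) in 6 lists of actin regulation and 3 lists of cell type markers, for the 4 comparisons, with the size of each list in brackets. Crosslinking and bundling has 9 genes higher with PE in siSlc25a26, and fibroblast markers have 8 genes lower for siSlc25a26 without PE.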

How the data were processed

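RNA of NRVMs was sequenced in 12 libraries, grouped by their labels. The authors deposited estimated counts per gene, of which 20.8% to 21.9% per library are not whole, and they were rounded here for the tests, since the planned design had assumed plain counts. The authors also deposited FPKM values, used for levels and shares. The submitters' processing notes name HISAT, Bowtie2 and Rnor 6.0, without roles. The counting program, annotation and strand setting are not given in the sources used here, and reads shared by near-identical actins may have been divided between them. The study's text describes another siRNA, and only its thresholds and cell preparation were used.

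Differential expression was tested with edgeR 4.0.16 in R 4.3.3 (TMM, filterByExpr, quasi-likelihood F-test) in the 2 groups compared, or in all 12 libraries for the interaction, with Benjamini-Hochberg adjustment over all genes tested. A gene was called above a 1.5-fold change with an adjusted p under 0.05. Fold changes are on this scale and FPKM values are scaled to the library total, so the ratios can differ. Shares were compared by exact permutation tests. Likeness is Pearson's r of log2 CPM (prior count 2) among genes with a mean FPKM of at least 1.

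Named genes are the 6 members, Slc25a26, Setd3, Naa80, 3 genes most like each member, and up to 2 called genes with the largest rise and 2 with the largest fall per list and comparison; 1 gene so named is not reported here. Srf, the levels of Col1a1, Tnnt2, Nkx2-5, Emcn, Cldn5, Cd163 and Des, and the levels of other marker genes were added after their values were seen. The members and lists were chosen with earlier results of these data known. The procedure was tested on simulated data. Replicates of a group differed by more than sampling noise. Alternatives were DESeq2 1.42.0, its size factors in edgeR, limma-voom, limma 3.58.1 on FPKM values with a pseudocount of 1 or 0.1 before taking log2, no low-count filter, at least 10 counts in every library, a replicate block, all 12 libraries in 1 fit, no fold threshold, other bases of the share and leaving out each library. Adding LOC100361457 and leaving Des out of a marker sum were chosen after seeing the data. Promoter windows are from RefSeq, assembly GRCr8, and were not lifted to the build of the tables.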

Additional observations from a re-analysis of the deposited data

Results flagged for a closer look

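The PE effect of 5 actin genes differed between the siSlc25a26 and siNeg backgrounds by the interaction test over 12 libraries, where the siSlc25a26 effect rests on libraries in which no lower Slc25a26 level was measured. The effect of PE was larger in siSlc25a26 by 1.95 on the log2 scale for Acta1 (edgeR adjusted p = 0.00488). For Actc1 it was larger by 0.92 (edgeR adjusted p = 0.00174). For Acta2 it was higher by 0.88 (edgeR adjusted p = 0.00233), with a fall in siNeg and no call in siSlc25a26. For Actb it was higher by 0.52 (edgeR adjusted p = 0.00556), under 1.5-fold. For Actg1 it was higher by 0.54 (edgeR adjusted p = 0.00293), under 1.5-fold.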

How the results depend on the processing

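Of the alternative values for single actins, 496 kept the direction and the call of the reported value, 14 gained a call, 1 lost it and 4 changed sign. With no fold change threshold, called members went from 2 to 5 for siSlc25a26 without PE, from 2 to 4 for PE in siSlc25a26 and from 3 to 5 for the difference between PE effects. Over the 4 comparisons, list genes called at least once went from 4 to 21 (folding and modification), 6 to 12 (end capping), 9 to 20 (monomer binding), 7 to 23 (nucleation) and 5 to 11 (SRF and MRTF). Of all genes, 15.8% to 20.7% were called per comparison with the threshold and 40.1% to 52.4% without it. The share of all genes called at least once was not counted, so these list counts have no share beside them. Limma on log2(FPKM + 1) or log2(FPKM + 0.1) called 2 folding genes, and on log2(FPKM + 1) 5 monomer binding genes. On these scales Acta2 turned to -0.13 with PE in siSlc25a26, from 0.04, and Actg2 was called there (-0.67 and -0.69), while the median of all genes was -0.13 and -0.17 for that comparison and -0.11 and -0.14 for the difference between PE effects. The higher share of all calls was then 27.4% and 27.1% for PE in siSlc25a26, against 49.2%, and 23.4% and 22.1% for the difference, against 39.3%.

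Without siSlc25a26 replicate 2, Acta2 was at -0.025 for PE in siSlc25a26, and without siNeg.PE replicate 1 at 0.0031 for siSlc25a26 under PE, with ranges over the left-out libraries of -0.025 to 0.12 and of -0.23 to 0.0031. The Acta1 share difference without PE was -0.54 to 0.14 points over the left-out libraries, positive without siSlc25a26 replicate 3. Leaving out 1 library gave 2 to 3 called members for siSlc25a26 without PE and under PE, and 3 to 4 for the difference. The Acta1 log2 fold changes were 2.95 to 3.41 for PE in siNeg, 4.93 to 5.41 for PE in siSlc25a26 and 1.19 to 1.69 under PE. The cause of these changes was not tested.

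With the replicate block no actin gained or lost a call: 6, 2, 3, 2 and 3 members were called for PE in siNeg, siSlc25a26 without PE, siSlc25a26 under PE, PE in siSlc25a26 and the difference. The labels tie the replicate numbers to no shared preparation, and the deviations of same-numbered libraries correlated at -0.09 to 0.22. Libraries matched their own number best in 15 of 18 cases among siNeg, siNeg.PE and siSlc25a26.PE and in 5 of 18 with siSlc25a26, a hint of shared numbers in part of the data that was not used for the reported values. The siSlc25a26.PE results cannot be recomputed without the libraries in doubt, since all 3 are of that group. FPKM values carry no counting error here, and 3 libraries per group limit all tests.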
